A study of Mus musculus with 4 samples.

Results

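The 46 genes described here encode the core machinery of autophagy and of the lysosome, and their transcript levels were measured in mouse T helper 17 (Th17) cells, CD4 T cells that secrete IL-17. They were named by symbol from their known roles, and all 46 were found among the 50600 genes of the count tables. By role they comprise 5 genes of the ULK kinase complex, 5 of the class III phosphatidylinositol 3-kinase (PI3K) complexes, 3 of the ATG9 and WIPI group, 8 conjugation enzymes and their partners, 5 ATG8 genes, 4 cargo receptors, 3 transcription factors of the MiT/TFE family, 3 lysosomal membrane genes, 8 cathepsins and 2 other genes of the lysosomal lumen.

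The study holds 4 RNA sequencing libraries of primary Th17 cells of mouse strain C57BL/6NJ, numbered as biological replicates 1 to 4, with no other cell type and no treated arm. Per the labels, the linked protocol is for differentiation of CD4+ T cells, the molecule is total RNA, and the library protocol names polyA+ RNA while the assay title reads total RNA-seq. All 4 carry the same donor label, sex was not collected and age is unknown. The name of the counting output carries 48 hr, which the labels do not explain. No label says whether the replicates came from separate animals or cultures. The p-values below therefore speak only for these 4 samples, and part of the spread between the samples may be technical.

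Autophagy wraps cytoplasm in a double membrane, the autophagosome, and delivers it to the lysosome for breakdown. The ULK complex starts the process, the PI3K complexes mark the membrane, ATG9 and WIPI proteins supply and organise lipid, and a ubiquitin-like cascade attaches ATG8 proteins to the membrane, where cargo receptors bind them. Lysosomal proteases, the cathepsins among them, then digest the content, and TFEB and TFE3 switch on autophagy and lysosome genes through E-box sequences in their promoters. In T cells, autophagy is known to take part in survival, in removal of organelles after activation and in memory formation.

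The libraries held 28555677, 36998648, 58104663 and 42896684 counted fragments in replicates 1 to 4. Levels are given in TPM, fragment counts scaled by exon length and then to the same total in every library, so that genes can be compared with each other. All 6 Th17 and T cell markers were above 1 TPM in every library, with a summed level between 16405.2 and 17083.2 TPM. None of 5 macrophage, 5 dendritic cell, 5 B cell, 6 CD8 T and NK cell, 5 mast cell and 4 melanocyte markers reached 1 TPM in every library, and no list of them summed to more than 1.528 TPM. Of 4 osteoclast markers 1 did, Acp5, a lysosomal acid phosphatase. Lyz2 of macrophages, Siglech of dendritic cells, Ms4a1 of B cells and Dcstamp of osteoclasts had 0 counts in every library. The libraries stood apart in sex-linked transcripts. Xist, expressed from the inactive X chromosome, had 132, 131, 0.329 and 0.496 TPM in replicates 1 to 4. The Y-linked gene Ddx3y had 0.428, 0.347, 58.9 and 57.3 TPM. Xist is normally made in female cells and Ddx3y in male cells, which a single animal behind the shared donor label would not give, and the labels do not settle which animals were used. Levels of the members are therefore given in every library, and ratios and shares as means with SD over the 4 libraries.

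Of the 46 genes, 45 (97.8%) were at 1 TPM or more in every library, against 47% of the 21764 protein-coding genes of the files. The median level over all 46 genes was 25.5 TPM, while that of the 14734 protein-coding genes with any count was 13.0 TPM. Among genes that passed 1 TPM, the 45 members had a median of 25.7 TPM and all 10223 protein-coding genes had a median of 31.3 TPM. Of the 45, 18 lay above that median of 31.3 TPM, 9 above the upper quartile of 78.8 TPM, 3 above the 90th percentile of 181 TPM, and 9 below the lower quartile of 11.2 TPM. By role, median levels were 159 TPM for the other lumen genes, 89.0 TPM for cathepsins, 41.6 TPM for ATG8 genes, 39.2 TPM for receptors, 25.7 TPM for the ULK complex, 24.4 TPM for lysosomal membrane genes, 21.3 TPM for conjugation, 16.8 TPM for the PI3K complexes, 7.08 TPM for ATG9 and WIPI and 5.12 TPM for MiT/TFE. The 159 TPM is the midpoint of 2 genes, Psap at 305 TPM and Hexa at 13.4 TPM. The order of the medians depends on the exon length used. The length of the main transcript of a gene was also used in place of all its merged exons. By that length the median was 65.4 TPM for receptors and 64.9 TPM for cathepsins. It was 113 TPM for the other lumen genes, 44.4 TPM for lysosomal membrane genes and 8.68 TPM for MiT/TFE. In bulk RNA, fewer cells expressing a gene and less RNA per cell cannot be told apart.

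**Figure D1:**
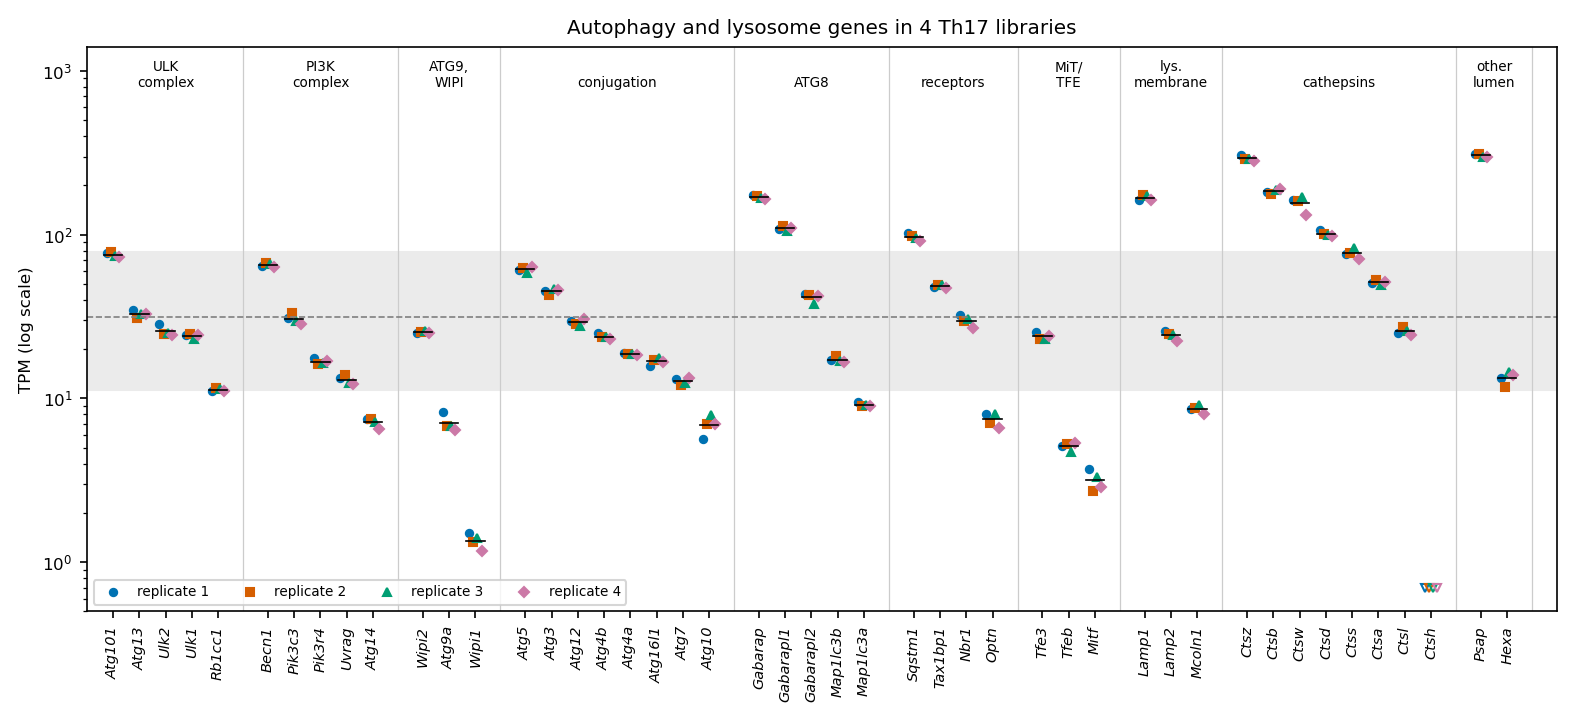
Levels of the 46 genes in the 4 Th17 libraries, as TPM on a log scale, grouped by role and ordered by mean within each role. Points are libraries, bars are means, the dashed line is the median of detected protein-coding genes (31.3 TPM) and the grey band spans their quartiles (11.2 to 78.8 TPM); open triangles at the bottom mark Ctsh, which had 0 counts. Psap and Ctsz stand highest and the 4 libraries of a gene mostly lie close together.

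Of the MiT/TFE factors, which control transcription of lysosome genes, Tfeb and Mitf were among the lowest members, and Tfe3 made up most of the summed level. Tfe3 (ENSMUSG00000000134.17, chromosome X, 7762560 to 7775202 on the plus strand of mm10) had 25.4, 23.2, 23.02 and 24.1 TPM in replicates 1 to 4. Tfeb, its best studied relative in lysosome control, had 5.11, 5.30, 4.71 and 5.34 TPM. Mitf, a factor best known from melanocytes and osteoclasts, had 3.69, 2.73, 3.33 and 2.89 TPM. The groups of values did not overlap, with Tfe3 above Tfeb and Tfeb above Mitf in 4 of 4 libraries. Of the summed level of these members, 74.3 ± 0.173% came from Tfe3, 15.9 ± 1.01% from Tfeb and 9.80 ± 1.11% from Mitf (SD, n = 4). The log2 ratio of Tfe3 over Tfeb was 2.20 ± 0.09, and that of Tfeb over Mitf was 0.69 ± 0.25, with values of 0.46, 0.94, 0.49 and 0.86 in replicates 1 to 4. Tfeb over Mitf had the widest spread of all 22 gene pairs compared in this way. Mitf rested on 195, 187, 361 and 232 counts. Of the 4 melanocyte markers, Tyr, Dct and Mlana had 0 counts in every library and Pmel had 15, 14, 26 and 12 counts. TFEB and TFE3 are also regulated by moving between cytoplasm and nucleus, which RNA levels do not measure.

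Ratios were formed within each library as log2((TPM + 0.1)/(TPM + 0.1)) for 22 pairs of related genes and tested by flipping their signs (exact, two-sided). With 4 libraries at least 2 of 16 sign patterns are as extreme as the observed one, so p cannot fall below 0.125 and no pair can pass 0.05. A direction shared by 4 of 4 libraries gave p = 0.125 (exact test, 0.131 after Benjamini-Hochberg adjustment over the 22 pairs), and 21 pairs did so. Genes of unlike level that vary little between libraries give this outcome. Other gene pairs were not taken for comparison, so the count says nothing particular about these pairs. Among the 21, the direction of Ctsz over Ctsh is fixed by the 0 counts of Ctsh, so its test says nothing. The exception was Ulk1 over Ulk2. The ratios rest on the exon length that divides the counts. With the length of the main transcript instead of all merged exons, Tfeb over Mitf was 1.63, Lamp1 over Lamp2 was 1.65, Map1lc3b over Map1lc3a was 2.37 and Gabarapl2 over Map1lc3b was 0.17. By the same length Atg14 over Uvrag was -1.65, Atg4b over Atg4a was 1.06, Wipi2 over Wipi1 was 5.49 and Optn over Tax1bp1 was -3.77, all with the direction that merged exons gave.

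**Figure D2:**
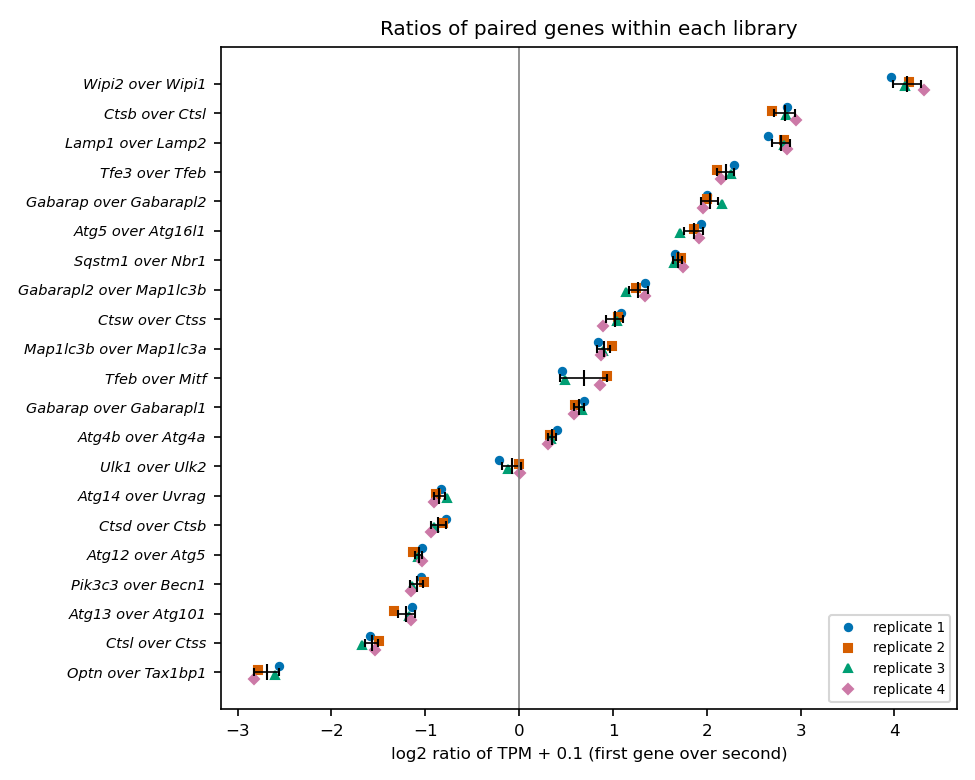
Ratios of paired genes within each of the 4 Th17 libraries, as log2 of the first gene's TPM + 0.1 over the second's. Points are libraries, the vertical tick is the mean and the bar its SD (n = 4); the pair of Ctsz over Ctsh is left out because Ctsh had 0 counts. Of the pairs drawn, Ulk1 over Ulk2 is the one whose libraries lie on both sides of 0.

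The motif through which TFEB and TFE3 are known to act is the E-box CACGTG, and TCACGTGA is the core of the longer CLEAR element. RefSeq promoter windows of 300 bases (250 before and 50 after a start site, build GRCm38.p6) were at hand for 37 of the 46 genes, as 47 windows. CACGTG, which reads the same on both strands, was in 9 of the 47 windows (19.1%), each of a different gene, and in 7.15% of all 32851 RefSeq windows. TCACGTGA, which contains CACGTG, was in 4 of the 47 (8.51%) and in 0.974% of all windows. The 9 genes were Lamp1, Ctsd, Atg5, Ctsa, Atg3, Ctsl, Atg7, Mcoln1 and Atg14, with mean levels from 169 down to 7.15 TPM. Atg3, Ctsa, Ctsd and Mcoln1 held the longer form. These levels are of the whole gene, and a RefSeq start site can differ from the start of the counted gene. The windows of Atg7 (114670846 to 114671145) and Ctsa (164833523 to 164833822) lie inside genes that begin at 114643097 and 164832873. The window of Ctsl (64370471 to 64370770, minus strand) lies wholly before the counted gene, whose first base is at 64370306. The windows of Ctsd (142387778 to 142388077, minus strand) and Mcoln1 (3500269 to 3500568) reach into the counted genes. Their counted first bases are at 142388038 and 3500457. In both, the copy of the longer form lies after that base, inside the counted gene. The windows of 5 genes held CACGTG more than once, and the stretches around these copies are shown because they carry the motif most densely. Each is RefSeq sequence of GRCm38.p6, read 5′ to 3′ on the strand of the gene, with CACGTG in capitals.
Lamp1, chr8:13159078-13159173, plus strand: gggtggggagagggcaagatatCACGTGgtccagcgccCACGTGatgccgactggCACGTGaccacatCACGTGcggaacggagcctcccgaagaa
Ctsa, chr2:164833739-164833792, plus strand: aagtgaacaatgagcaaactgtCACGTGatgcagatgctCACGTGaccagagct
Ctsd, chr7:142387898-142388077, minus strand: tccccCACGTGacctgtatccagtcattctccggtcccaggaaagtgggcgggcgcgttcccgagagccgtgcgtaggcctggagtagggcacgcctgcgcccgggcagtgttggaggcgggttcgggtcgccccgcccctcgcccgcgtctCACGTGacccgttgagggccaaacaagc
Atg3, chr16:45158713-45158785, plus strand: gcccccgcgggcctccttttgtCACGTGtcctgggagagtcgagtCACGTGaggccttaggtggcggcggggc
Mcoln1, chr8:3500426-3500501, plus strand: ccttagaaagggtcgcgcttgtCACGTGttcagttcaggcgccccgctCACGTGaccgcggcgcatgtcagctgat
The Lamp1 stretch holds 4 copies, which begin 61, 45, 28 and 15 bases before the start site. In Ctsa both copies are of the longer form, 1 of them 12 bases before and 1 of them 6 bases after the start site used. In Mcoln1 the copy nearest the RefSeq start is of the longer form and begins 45 bases before it. In Atg3 the longer form begins 71 bases before the RefSeq start. The copies in Ctsd lie far apart, 245 and 98 bases before the RefSeq start, and the nearer one is of the longer form. A match describes letters in the window and not binding, and binding was not measured here.

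**Figure D3:**
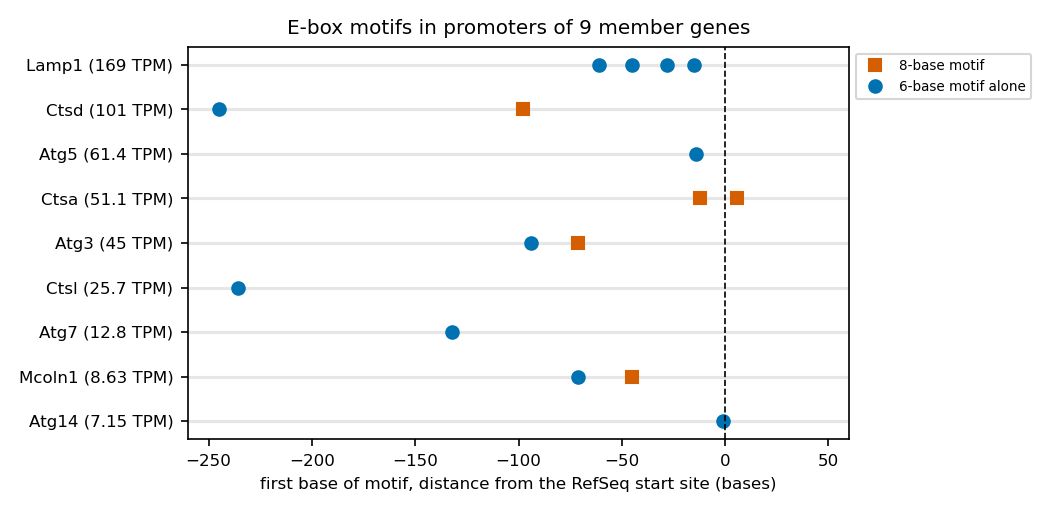
Position of the E-box motif in the RefSeq promoter windows of the 9 genes that hold it, as bases from the start site (dashed line); squares are copies of the 8-base form and circles copies of the 6-base form alone. Genes run from high to low mean TPM, and Lamp1 holds 4 copies within 61 bases of its start site.

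Of the 3 lysosomal membrane members, Lamp1 had the highest level. Lamp1 (ENSMUSG00000031447.7, chromosome 8, 13159161 to 13175338 on the plus strand), which encodes the most abundant lysosomal membrane glycoprotein, had 162, 175, 173 and 163 TPM in replicates 1 to 4. Lamp2, its relative that also serves chaperone-mediated autophagy, had 25.9, 24.8, 24.5 and 22.3 TPM. Mcoln1, the lysosomal calcium channel TRPML1, had 8.59, 8.76, 9.08 and 8.08 TPM. Lamp1 exceeded Lamp2 by a log2 ratio of 2.79 ± 0.10. Lamp1 and Mcoln1, the members with 169 ± 6.78 TPM and 8.63 ± 0.416 TPM (SD, n = 4), thus lie at both ends of the genes with repeated E-box copies shown above.

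Psap and Ctsz had the highest levels of the 46 genes in TPM. Psap (ENSMUSG00000004207.14, chromosome 10, 60277627 to 60302597 on the plus strand) encodes prosaposin, the precursor of the saposins that help break down sphingolipids, and had 310.5, 313, 298 and 299 TPM. Hexa, the alpha subunit of the ganglioside-degrading enzyme beta-hexosaminidase, had 13.4, 11.7, 14.5 and 13.9 TPM. Psap was above Hexa in 4 of 4 libraries without overlap.

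The 8 cathepsins, proteases of the lysosome, ran from the top of the set to no detected transcript. Ctsz (ENSMUSG00000016256.10, chromosome 2, 174427493 to 174439039 on the minus strand), a carboxypeptidase, had 306, 290.1, 291 and 283 TPM. Ctsb, a cysteine protease with both endo- and exopeptidase activity, had 183, 177, 186 and 189 TPM. Ctsw, a cathepsin known from cytotoxic T cells and NK cells, had 163, 159.8, 169.8 and 132 TPM, with replicate 4 the lowest. The defining markers of CD8 T and NK cells were near 0 in the same libraries (6 markers, summed level 0.391 to 0.552 TPM, with Ncr1 and Klrb1c at 0 counts). Ctsd, the main aspartic protease of the lysosome, had 107, 101, 98.9 and 98.4 TPM. Of its exon bases, 34.4% are shared with Gm49369, a gene with 0 counts, and fragments falling on both were not counted. The length was not reduced for this, so the level of Ctsd may be too low. Ctss, a protease of antigen presentation in myeloid cells, had 76.2, 77.04, 82.7 and 71.2 TPM. Ctsa, the protective protein for beta-galactosidase and neuraminidase, had 50.5, 53.0, 49.6 and 51.2 TPM. Ctsl, a cysteine protease, had 25.2, 27.3, 25.97 and 24.4 TPM. The order Ctsz, Ctsb, Ctsw, Ctsd, Ctss, Ctsa, Ctsl was the same in 4 of 4 libraries. The place of Ctsd below Ctsw rests on fragments counted outside the shared bases.

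Ctsh (ENSMUSG00000032359.14, chromosome 9, 90054152 to 90076089 on the plus strand), an aminopeptidase, had 0 counts in all 4 libraries. A count of 0 allows up to 3 counts, which is 0.0781, 0.0602, 0.0381 and 0.0515 TPM in replicates 1 to 4 and covers counting error only. With that floor per library, Ctsz was at least 3915-fold higher than Ctsh in each library. Ctsh was also the single member that did not reach 1 TPM.

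The summed level of the 8 cathepsin members was 887 ± 27.9 TPM (SD, n = 4). Further cathepsins, led by Ctsc at 132 ± 6.49 TPM, are not in this sum. Of the sum, 33.0 ± 0.636% came from Ctsz, 20.7 ± 1.04% from Ctsb, 17.6 ± 1.41% from Ctsw and 11.4 ± 0.345% from Ctsd. A further 8.66 ± 0.365% came from Ctss, 5.77 ± 0.288% from Ctsa and 2.90 ± 0.133% from Ctsl. The share of Ctsw was 15.5% in replicate 4 and between 17.9% and 18.8% in the others. Log2 ratios were -0.86 ± 0.08 for Ctsd over Ctsb, 2.83 ± 0.11 for Ctsb over Ctsl, -1.57 ± 0.07 for Ctsl over Ctss and 1.02 ± 0.09 for Ctsw over Ctss. The share of Ctsd and its ratio to Ctsb may be too low, since fragments on the bases shared with Gm49369 were not counted. By counts alone, not scaled by length, Ctsb took the largest share at 41.1% and Ctsz 19.9%, so the order of these genes depends on the exon length used. The level of Ctsl depends on the gene model, since its main transcript in GENCODE M21 is longer than the exons that were counted. With that longer length its share was 0.9195%, Ctsb over Ctsl was 4.46 and Ctsl over Ctss was -3.20.

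**Figure D4:**
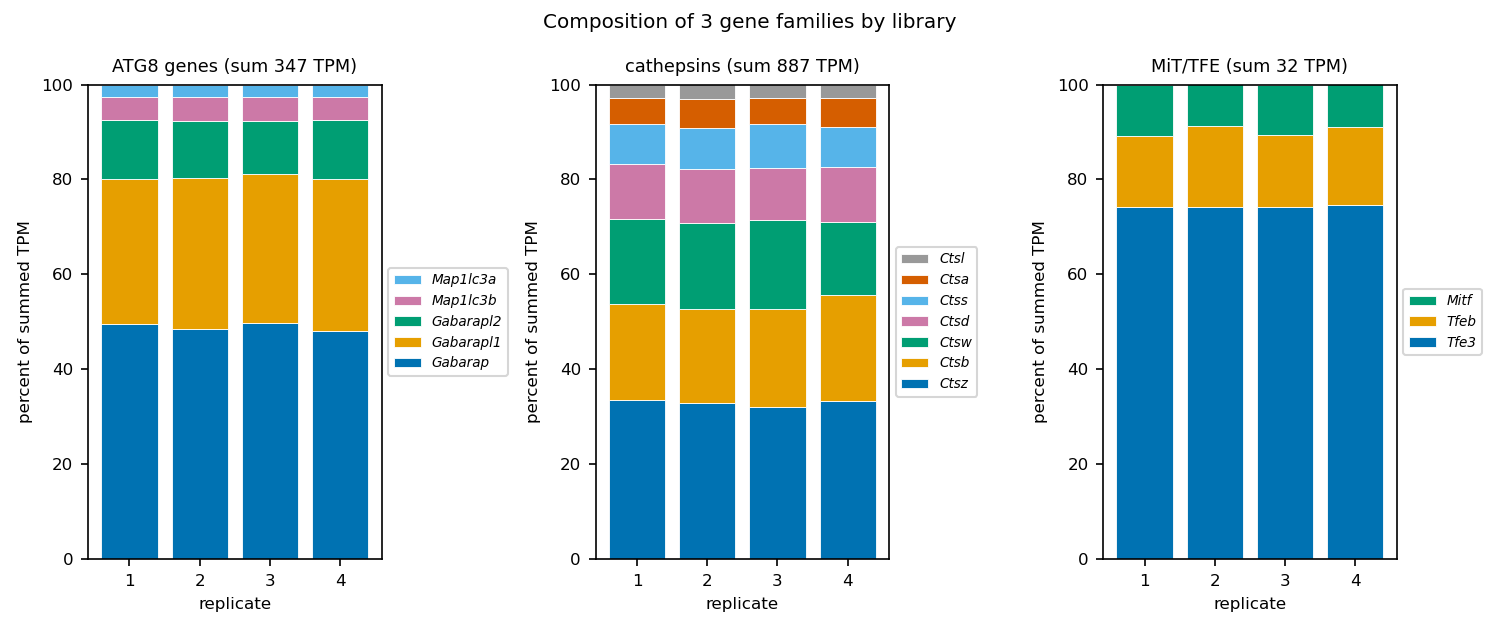
Composition of the ATG8, cathepsin and MiT/TFE members in each of the 4 Th17 libraries, as percent of the summed TPM of the members of that role. Gabarap (49.0%), Ctsz (33.0%) and Tfe3 (74.3%) hold the largest mean shares, and the share of Ctsw is lowest in replicate 4.

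The ATG8 genes, whose proteins are attached to the autophagosome membrane and hold cargo receptors there, were led by the GABARAP subfamily. Gabarap (ENSMUSG00000018567.14, chromosome 11, 69991143 to 69994951 on the plus strand) had 175, 173, 168 and 165 TPM in replicates 1 to 4. Gabarapl1 had 108, 114, 105 and 109.7 TPM, and Gabarapl2 had 43.6, 43.1, 37.5 and 42.3 TPM. Map1lc3b, which encodes LC3B, the usual protein marker of autophagosomes, had 17.2, 18.1, 17.03 and 16.6 TPM. Map1lc3a had 9.52, 9.02, 9.15 and 9.03 TPM. No neighbours in this order overlapped.

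Of the summed ATG8 level of 347 ± 9.15 TPM, 49.0 ± 0.788% came from Gabarap, 31.5 ± 0.616% from Gabarapl1, 12.0 ± 0.570% from Gabarapl2, 4.96 ± 0.120% from Map1lc3b and 2.65 ± 0.0828% from Map1lc3a (SD, n = 4). The 3 GABARAP genes together held 92.4 ± 0.123%. Log2 ratios were 0.64 ± 0.05 for Gabarap over Gabarapl1, 2.03 ± 0.09 for Gabarap over Gabarapl2, 1.27 ± 0.10 for Gabarapl2 over Map1lc3b and 0.90 ± 0.07 for Map1lc3b over Map1lc3a. Length matters for Map1lc3b, whose merged exons span 7517 bases. With the length of its main transcript its share was 10.8% and that of the GABARAP genes 87.1%, and by counts alone these shares were 16.8% and 81.8%. By counts alone Gabarapl2 was below Map1lc3b, at a log2 ratio of -0.42.

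The proteins differ in how alike they are. Gabarap and Gabarapl1 encode proteins of 117 residues, of which 101 are identical (86.3%). Map1lc3a and Map1lc3b proteins share 99 of 121 aligned residues (81.8%). Gabarapl2 is 57.3% identical to Gabarap and 60.7% to Gabarapl1, and identity between an LC3 and a GABARAP protein ranged from 30.8% to 41.0%. At the level of RNA, no window of 100 bases of Gabarap or Gabarapl1 was found in another gene, while 6.80% of those of Gabarapl2 and 2.87% of those of Map1lc3b were found in other genes, most of them pseudogenes. Fragments that map to more than 1 place were not counted, so the levels of Gabarapl2 and Map1lc3b carry that uncertainty.

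The ULK complex, which starts autophagy, had its highest level, in TPM, in Atg101. Atg13 and Atg101 encode partners that bind each other in the complex. Atg13 had 34.8, 30.8, 32.9 and 32.8 TPM, and Atg101 had 76.9, 77.9, 74.1 and 73.1 TPM, more in every library. Their log2 ratio was -1.20 ± 0.09, and by counts alone it was 0.62, since Atg13 has 4368 exon bases and Atg101 has 1230. The kinase genes were close to each other. Ulk1 had 24.5, 24.9, 23.04 and 24.5 TPM and Ulk2 had 28.4, 24.8, 25.1 and 24.4 TPM, so that the values overlapped. Ulk1 was the higher of the pair in 2 of 4 libraries, and the log2 ratio of Ulk1 over Ulk2 was -0.08 ± 0.10 (exact two-sided sign-flip test, p = 0.5, adjusted p = 0.5 over 22 pairs). It was 0.18 with the length of the main transcript. Rb1cc1, which encodes the scaffold FIP200, had 11.1, 11.6, 11.4 and 11.04 TPM, the lowest of the 5 genes.

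The PI3K complexes make the lipid signal that draws later factors to the membrane. Pik3c3, the catalytic subunit VPS34, had 30.9, 33.4, 29.9 and 28.6 TPM. Becn1, the regulatory subunit Beclin 1, had 64.2, 67.4, 65.8 and 63.5 TPM, and the log2 ratio of Pik3c3 over Becn1 was -1.09 ± 0.07. Pik3r4, the VPS15 subunit, had 17.7, 16.1, 16.4 and 16.8 TPM. Atg14 and Uvrag define alternative complexes, for autophagosome formation and for later endosomal and lysosomal steps. Atg14 had 7.47, 7.46, 7.21 and 6.47 TPM and Uvrag had 13.4, 13.9, 12.3 and 12.2 TPM, with a log2 ratio of -0.85 ± 0.06. Atg14 was thus the lowest of the 5 subunits in every library.

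In the next group, Wipi1 was the lowest detected member of all. Atg9a, the lipid scramblase of the growing membrane, had 8.26, 6.80, 6.83 and 6.42 TPM, with replicate 1 the highest. It shares 31.8% of its exon bases with Gm29253, which had 0 counts, and fragments on both were not counted. WIPI proteins read the PI3K lipid. Wipi2, which recruits ATG16L1, had 25.04, 25.3, 25.8 and 25.3 TPM. Wipi1 (ENSMUSG00000041895.15, chromosome 11, 109573331 to 109611967 on the minus strand) had 1.51, 1.33, 1.4 and 1.17 TPM, from 57, 65, 108 and 67 counts, and Wipi2 exceeded it by a log2 ratio of 4.13 ± 0.15.

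The conjugation genes attach ATG8 proteins to lipid and ranged from 61.4 TPM for Atg5 to 6.90 TPM for Atg10. With the length of the main transcript, Atg3 stood above Atg5, at 47.5 and 42.15 TPM, and Atg16l1 was at 35.6 TPM. Atg7, the E1-like enzyme that serves both ubiquitin-like pathways, had 13.1, 12.2, 12.5 and 13.3 TPM. Atg3 and Atg10 are the E2-like enzymes. Atg3, which acts on ATG8 proteins, had 45.3, 42.6, 46.3 and 46.1 TPM, while Atg10, which acts on ATG12, had 5.68, 7.01, 7.93 and 6.96 TPM, with replicate 1 the lowest, from 78, 125, 223 and 145 counts. Atg12, Atg5 and Atg16l1 encode the complex that directs lipidation. Atg12 had 29.8, 28.6, 27.5 and 30.7 TPM and Atg5 had 61.03, 62.6, 58.4 and 63.3 TPM, a log2 ratio of -1.07 ± 0.04, which was -2.0 with the main transcript of Atg12 in GENCODE M21, longer than its counted exons. Atg5 exceeded Atg16l1, which had 15.8, 17.2, 17.7 and 16.7 TPM, by a log2 ratio of 1.86 ± 0.10. This last ratio depends on length, since Atg16l1 has 9628 exon bases: it was 0.24 with the length of the main transcript and -0.17 by counts alone. Atg4b and Atg4a encode proteases that trim and release ATG8 proteins. Atg4b had 25.01, 23.6, 23.7 and 22.98 TPM and Atg4a had 18.98, 18.7, 18.7 and 18.5 TPM, a log2 ratio of 0.35 ± 0.04 with no overlap, and of 1.06 with the length of the main transcript. Of 100-base windows of Atg4a, 34.7% occur also in Atg4a-ps, a gene at 0.908 ± 0.250 TPM (SD, n = 4), and fragments that map to both were not counted. The level of Atg4a may thus be too low and the ratio of Atg4b over Atg4a too high. Whether the direction of that ratio would turn was not tested.

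Cargo receptors bind ubiquitin and ATG8 proteins. Sqstm1 (ENSMUSG00000015837.15, chromosome 11, 50199366 to 50210827 on the minus strand), which encodes p62 and is both a receptor and a substrate of autophagy, had 102, 97.9, 95.9 and 90.9 TPM. Nbr1, a receptor of related build, had 32.2, 29.7, 30.5 and 26.9 TPM, and Sqstm1 exceeded it by a log2 ratio of 1.69 ± 0.05. Optn, which encodes optineurin, a receptor in mitophagy, had 8.09, 7.10, 8.03 and 6.61 TPM. Tax1bp1, a receptor that also restrains NF-kappaB signalling, had 48.2, 49.5, 49.1 and 47.4 TPM, and the log2 ratio of Optn over Tax1bp1 was -2.69 ± 0.13. Sqstm1, Tax1bp1, Nbr1 and Optn followed in this order in 4 of 4 libraries by TPM. By counts alone Tax1bp1, with 9991 exon bases, was above Sqstm1, with 3356, in every library, and with the length of the main transcript they were at 101.5 and 109.3 TPM.

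Variation between the libraries was small for these genes and close to that of all genes tested. A gene was called variable if its counts departed from Poisson noise (edgeR, deviance test, p under 0.05 after Benjamini-Hochberg adjustment over all genes tested) and if its CPM, the count scaled to the library total, differed by a ratio of 2 or more between the highest and the lowest library. Of the 46 members, 45 passed the filter on low counts, which Ctsh did not. Of the 45, 0 were called, against 1.74% of 12434 genes, a share at which 0 of 45 does not set the members apart. With size factors of DESeq2 in place of TMM, 0 of 45 were called as well. At an unadjusted p under 0.05, 24 of the 45 departed from Poisson noise, a departure that includes the usual spread between replicates. The share of all genes at this cut-off was not taken, so the count says nothing particular about the members. With no ratio asked, 17 of 45 (37.8%) were called, near the 36.6% of all genes. With the negative binomial deviance, which allows for the usual spread between replicates, 0 of 45 were called against 0.523% of all genes, and 1 member, Ctsw, had an unadjusted p under 0.05. The median ratio of the highest to the lowest library was 1.1 for the members and 1.114 for all genes tested.

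Ctsw departed most from Poisson noise among the members, with its highest library 1.29 times its lowest. Its adjusted p was 1.13e-17 in the Poisson deviance test of edgeR and 0.405 in the negative binomial test. Its 4 counts were 1712, 2181, 3657 and 2100, and replicate 4 was low relative to the total. The ratio was 1.42 for Atg10, 1.34 for Mitf, 1.27 for Wipi1 and 1.26 for Atg9a. Of these, Mitf and Atg9a were past an adjusted p of 0.05 in the Poisson test of edgeR (0.0351 and 0.0171), and Atg10 (0.12) and Wipi1 (0.651) were not. At the other end, Atg4a varied by a ratio of 1.01, and its coefficient of variation in TPM was 1.05%. Coefficients of variation were under 5% for 29 of the 45 members and for 6207 of the 10223 detected protein-coding genes. They were over 10% for 5 members, a count not taken over all genes. The median was 4.50% for the members, beside 4.14% over all detected protein-coding genes.

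Replicate 4 tended to the low side. The median deviation of the members from their own means on the log2 CPM scale was -0.028 in replicate 4, with 29 of 45 members below, while the median of all genes there was 0.00151. Medians in replicates 1, 2 and 3 were 0.0118, 0.0210 and 0.0031. Replicate 4 had the lowest TPM for 24 of 45 members (53.3%) and for 29.7% of detected protein-coding genes. All 4 cargo receptors were below their means in it (median -0.11), as were Lamp1, Lamp2 and Mcoln1, whereas 5 of 8 conjugation genes were above. In all, members took 0.262%, 0.260%, 0.259% and 0.254% of the counts in replicates 1 to 4. The sex-linked transcripts separated replicates 1 and 2 from 3 and 4 instead. The X-linked members Tfe3, Lamp2 and Atg4a, whose values stand above, varied by ratios of 1.08, 1.14 and 1.01. Their relation to that split was not tested.

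**Figure D5:**
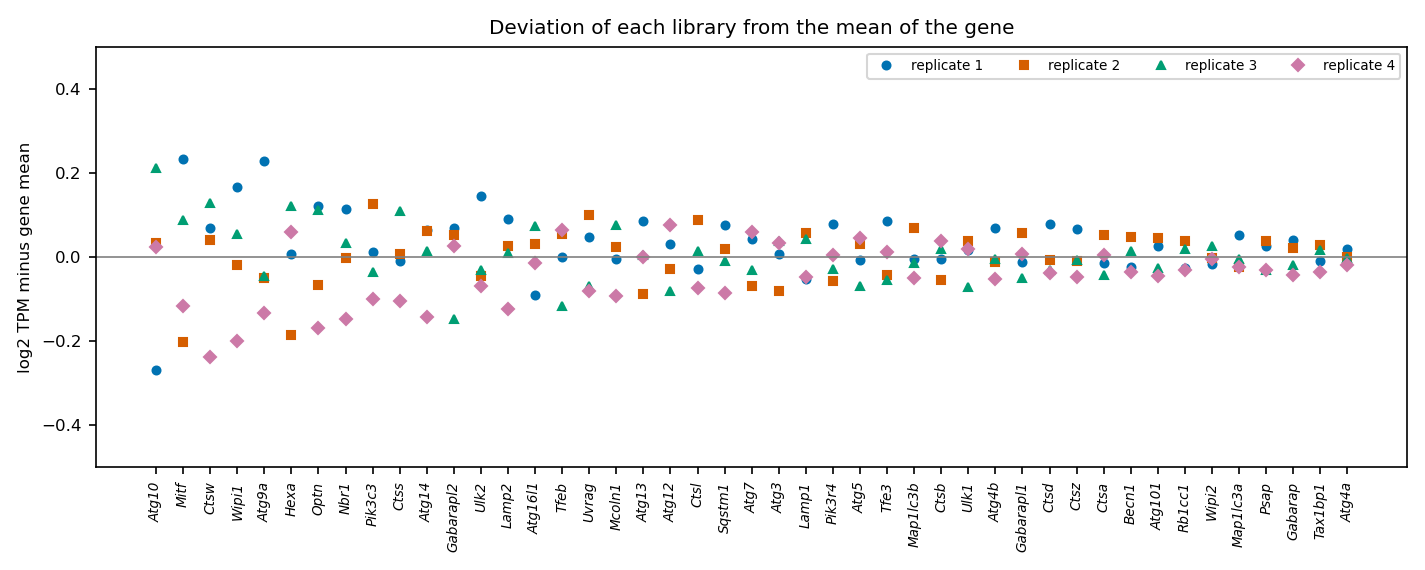
Deviation of each library from the mean of each of the 45 detected genes, on the log2 TPM scale, with genes ordered by the ratio of their highest to their lowest library. Points are the 4 Th17 libraries, and the line marks the mean of the gene. Atg10 and Mitf spread most, and Ctsw is low in replicate 4.

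Further genes of the same pathways were read from 7 lists, with 121 genes measured, of which 113 were at 1 TPM or more in every library (median over all 121, 25.4 TPM). All 31 further lysosomal hydrolases passed, led by Gusb (beta-glucuronidase, 64.2 ± 1.96 TPM), Neu1 (neuraminidase, 61.1 ± 2.34 TPM) and Tpp1 (tripeptidyl peptidase, 44.1 ± 1.76 TPM). The V-ATPase, the proton pump that acidifies the lysosome, had 17 of 18 subunits at 1 TPM or more with a median of 78.8 TPM. Atp6v1f was the highest at 138 ± 6.70 TPM, and Atp6v0d2, a subunit known from osteoclasts and macrophages, was at 0.227 ± 0.146 TPM. All 6 genes listed as cathepsin inhibitors passed as well, with the cystatins Cstb, Cst3 and Cst7 at 155 ± 11.6 TPM, 98.8 ± 5.01 TPM and 62.8 ± 4.50 TPM. The serpins Serpinb1a, Serpinb6b and Serpinb9 were far lower, at 3.63 ± 1.09 TPM, 3.33 ± 0.922 TPM and 2.19 ± 0.322 TPM.

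Of 6 further cathepsins 4 passed. Ctsc, which activates granule proteases, had 134, 131, 139 and 123 TPM, above the member Ctsd in every library. Ctsg of neutrophils had 0 counts in every library. Among 19 further genes of the lysosomal membrane and transport 16 passed, with Laptm5, a lysosomal protein of blood cells that limits T cell receptor levels, at 357 ± 13.9 TPM and M6pr, a mannose 6-phosphate receptor, at 218 ± 3.09 TPM. Both were above Lamp1 (169 ± 6.78 TPM). Of 29 further autophagy genes 27 passed, with Ykt6, a SNARE of membrane fusion, at 225 ± 5.99 TPM, Vmp1 at 106 ± 4.34 TPM and Retreg1, an ER-phagy receptor, at 84.8 ± 1.59 TPM. All 12 genes of the lysosomal scaffold that carries mTORC1 and controls TFEB passed, with Rraga, a Rag GTPase, at 166 ± 3.55 TPM and its paralogue Rragb at 6.92 ± 0.765 TPM. The errors are SD over 4 libraries.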

How the data were processed

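RNA was sequenced from 4 Th17 libraries. The authors deposited raw fragment counts per gene, made, per the file headers, with featureCounts 1.4.6-p4 on paired reads with both ends mapped, strand option 2 and GENCODE M13 gene models. Per the labels the build is mm10, and no aligner is stated in the headers or labels beyond names of alignment files. The command had no option to count multi-mapping fragments or fragments overlapping more than 1 gene, so these were not counted. The authors also deposited each gene's exon length in bases, per the file headers. Library totals ranged from 28555677 to 58104663 counts.

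From these, TPM and CPM were computed here. Symbols were matched by gene ID to GENCODE M21 (50376 of 50600 genes, all 46 members). The members, gene lists and pairs were chosen with earlier results of these data known. Every member is named. Values in each library are given for members, and context genes are named from lists by level. Variation was tested with edgeR 4.0.16 in R 4.3.3 (TMM scaling, filterByExpr, Poisson deviance with 3 degrees of freedom, prior count 0.5). Pair ratios used a sign-flip test with a pseudocount of 0.1. A single group gives no contrast for a quasi-likelihood fit. ATG8 identity was planned on RefSeq proteins and computed on translated GENCODE M21 coding sequences. Shared sequence was sought as exact windows of 100 bases in GENCODE M21 transcripts. Of 47 promoter windows, 37 ran into a GENCODE transcript of their gene on the same strand. The variation tests were checked on simulated counts. With the usual replicate spread and no change, the Poisson test called many genes with no ratio asked and some at a ratio of 2. The negative binomial test did not call such unchanged genes. Their counts were drawn from the model that this test assumes, so that outcome was largely set in advance. Chi-square per degree of freedom between pairs of libraries ranged from 3.86 to 9.86, so none was a repeat of another within sampling noise. It was 3.86 between replicates 1 and 2, 5.4 between replicates 3 and 4, and 7.68 to 9.86 for the other pairs. The lowest values thus fell within the sets that the sex-linked transcripts separated.

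Alternatives were CPM in place of TPM, a pseudocount of 1, thresholds of 0.5 and 5 TPM, DESeq2 1.42.0 size factors, no filter, other ratios, the negative binomial deviance and each replicate left out. Main transcript length (the longest APPRIS principal transcript of GENCODE M21, with and without a cap at the deposited exon length) was added after seeing the data.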

Additional observations from a re-analysis of the deposited data

Results flagged for a closer look

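Among 82 levels, log2 ratios and shares tested with Dixon's ratio over the 4 libraries, 1 had a library that stood apart, where chance alone would give about 4.1 (1 in 20). It was the log2 ratio of Atg13 over Atg101, at -1.33 in replicate 2 and between -1.17 and -1.14 in the other 3 libraries (Dixon's ratio 0.851, above its 95% critical value). Atg13 had 34.8, 30.8, 32.9 and 32.8 TPM in replicates 1 to 4 and Atg101 had 76.9, 77.9, 74.1 and 73.1 TPM, so that replicate 2 had the lowest Atg13 and the highest Atg101. No level of the 45 detected members stood apart by itself.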

How the results depend on the processing

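The direction of the 22 pair ratios held in 22 with a pseudocount of 1, in 88 of 88 ratios with a replicate left out, and in 21 of 22 with main transcript length, capped or not. Ctsz over Ctsh is counted in each of these, with a direction fixed by the 0 counts of Ctsh. The exception was Ulk1 over Ulk2 at 0.18, against -0.08 with all exons. By CPM 4 ratios turned: Ulk1 over Ulk2 to 0.04, Atg13 over Atg101 to 0.62, Atg5 over Atg16l1 to -0.17 and Gabarapl2 over Map1lc3b to -0.42. CPM takes no account of length, so these values compare fragments and not transcripts. The median of all members was 43.2 by CPM, and 30.9 TPM with main transcript length (31.3 uncapped), against 25.5 TPM. Shares by CPM were 40.7% for Gabarap, 19.9% for Ctsz and 82.0% for Tfe3, and with main transcript length 32.0% for Ctsz and 80.2% for Tfe3. Role medians and the other shares moved by more than 1 SD in 20 of 22 by CPM and in 14 of 22 by main transcript length (15 uncapped), and in 0 of 88 with a replicate left out. Detected members numbered 45 under main transcript length and at a threshold of 0.5 TPM. They numbered 42 at 5 TPM, where Tfeb, Mitf and Wipi1 also fell short.

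Variable genes numbered 1097 with no filter, 486 at a ratio of 1.5, 4550 with no ratio, and, by the negative binomial deviance, 18 at a ratio of 2 and 65 with no ratio, against 216. Leaving out a replicate gave 141 to 156. Variable members numbered 17 with no ratio asked and 0 under the other settings. The median shift of replicate 2 ranged from -0.004 to 0.019 with 1 replicate left out, against 0.021, and that of replicate 3 from -0.014 to 0.016, against 0.003. No paired analysis was possible because the libraries form 1 group. Depth limits the low members most: Wipi1 rested on 57 to 108 counts and Atg10 on 78 to 223. With 4 libraries no exact test could pass 0.05.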
